A study of Mus musculus with 61 samples.

Results

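The genes described are those of the mouse mitochondrial ribosome, taken as every gene whose symbol begins with Mrpl or Mrps and a digit, pseudogenes left out. There were 76 of them among the 15149 genes of the table, 47 with Mrpl and 29 with Mrps symbols. RNA was sequenced from Thy1.2+ cells sorted from mouse retinas, labelled retinal ganglion cells and sorted against GFAP, Cd45.2, Cd34, Cd11c and Cd11b, from eyes without axon degeneration. The 61 libraries fell into 5 groups. DBA/2J mice of 9 months given nicotinamide at 500 mg per kg per day gave 7 libraries, and DBA/2J mice of 9 months in the water control arm gave 25. DBA/2J mice of 4 months gave 10, D2-Gpnmb+ mice of 9 months gave 9 and D2-Gpnmb+ mice of 4 months gave 10, all in the water control arm. All mice therefore shared the DBA/2J background. DBA/2J is an inbred strain that carries mutant Gpnmb and develops an inherited glaucoma with age, and D2-Gpnmb+ is its control strain with a functional Gpnmb allele.

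The mitochondrial ribosome translates the few mRNAs that the mitochondrial genome encodes, which code for core subunits of the respiratory chain and of ATP synthase. All its proteins are encoded in the nucleus, made in the cytosol and imported, while its ribosomal RNAs come from the mitochondrial genome. Some of the proteins descend from bacterial ribosomal proteins and others exist only in mitochondria. Retinal ganglion cells carry the visual signal to the brain through long axons whose stretch inside the eye lacks myelin, and they are rich in mitochondria. Nicotinamide is a form of vitamin B3 and a precursor of NAD+.

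By the known ribosome structures, 49 of the 76 genes code for large-subunit proteins and 26 for small-subunit proteins. Mrps36 was kept by its symbol, although its product is now known as a component of the 2-oxoglutarate dehydrogenase complex. Of the members, 45 are of bacterial type, 29 are mitochondria-specific, and Mrps18a and Mrps18b are extra relatives of bacterial S18 beside Mrps18c. The genes lie on 17 chromosomes. Exons of 27 members overlap exons of a gene on the opposite strand, so reads of these members are uncertain, since it is not stated whether counting used the strand. The longest such overlaps were 4590 bases of Mrps25 with Nr2c2, 1962 bases of Mrpl19 with Gcfc2 and 1309 bases of Mrps34 with Mapk8ip3. Mrpl14, Mrpl49, Mrps11 and Mrps26, named below for age, share 106, 91, 173 and 8 bases in this way. Some members overlap a gene on the same strand, which counting by strand would not resolve. Among them are Mrps34 with Nme3 (763 bases), Mrpl53 with Gm42688 (695), Mrpl33 with Gm43809 (261) and Mrps24 with Urgcp (226).

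Promoter sequence is shown for the 2 members that passed the test in both the age and the nicotinamide comparison, for the 3 relatives of S18, and for the stretch that Mrps12 shares with Sars2. In RefSeq on build GRCm38.p6, 67 members matched 73 promoters, each spanning 250 bases before to 50 after the start site. The Mrpl22 stretch is chr11:58171544-58171663 on the plus strand, the Mrpl51 stretch chr6:125192080-125192199 on the plus strand, and the Mrps18a stretch chr17:46110884-46111003 on the plus strand. The Mrps18b stretch is chr17:35916441-35916560 on the minus strand and the Mrps18c stretch chr5:100798589-100798708 on the plus strand. Each holds 120 bases, given 5′ to 3′ on the gene's strand. Those of Mrpl22, Mrpl51, Mrps18a and Mrps18b end at the base before the RefSeq start site, and that of Mrps18c, placed to hold its motif, runs from -170 to -51 of it. The last stretch, chr7:28741822-28741967 on the plus strand, holds the 146 bases between the start sites of Mrps12, a protein of the decoding centre, and Sars2, the mitochondrial seryl-tRNA synthetase, which run away from each other. Capitals mark the ETS motif CCGGAAG or its reverse complement, or the CCAAT box, which reads ATTGG on the other strand.
Mrpl22: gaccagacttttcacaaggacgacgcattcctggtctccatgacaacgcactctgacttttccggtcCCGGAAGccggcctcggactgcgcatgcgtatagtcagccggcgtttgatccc
Mrpl51: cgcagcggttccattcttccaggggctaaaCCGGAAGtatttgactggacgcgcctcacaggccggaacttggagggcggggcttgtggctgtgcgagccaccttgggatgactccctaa
Mrps18a: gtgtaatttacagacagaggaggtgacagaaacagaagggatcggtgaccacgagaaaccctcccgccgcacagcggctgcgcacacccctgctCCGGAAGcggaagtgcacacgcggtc
Mrps18b: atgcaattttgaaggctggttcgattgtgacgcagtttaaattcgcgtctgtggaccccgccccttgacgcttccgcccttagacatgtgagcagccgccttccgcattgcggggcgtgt
Mrps18c: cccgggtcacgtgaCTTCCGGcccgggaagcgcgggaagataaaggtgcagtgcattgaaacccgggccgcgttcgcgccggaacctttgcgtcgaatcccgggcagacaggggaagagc
Mrps12-Sars2: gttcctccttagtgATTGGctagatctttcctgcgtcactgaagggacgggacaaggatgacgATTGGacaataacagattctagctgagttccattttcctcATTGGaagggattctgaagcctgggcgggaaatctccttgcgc

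The ETS motif, the form bound by GABPA (also called NRF2), was present on either strand in 24 of the 73 member promoters, or 32.9%. It was present in 8.86% of all promoters of the same length and in 15.1% of those of genes in the table. The share was 34.3% for cytosolic ribosomal proteins and 23.9% for nuclear-encoded respiratory chain subunits. Counted from the start site, with bases before it negative, the motif began at -53 in Mrpl22, at -90 in Mrpl51, at -26 in Mrps18a and at -156 in Mrps18c. In Mrps18b it began at base 44 of the transcript, outside the printed stretch, and in Mrps23 at base 16. The NRF1 motif, GCGCA and GCGC around any 1 base, was present in 16.4% of member promoters, against 4.60% of all promoters and 8.71% of those of genes in the table. For cytosolic ribosomal proteins it was 7.46%, and for respiratory chain subunits 25.4%. The YY1 motif AAGATGGC was present in 16.4% of member promoters, against 10.4% and 13.4% of those of these lists, 2.75% of all promoters and 3.84% of those of genes in the table. The CCAAT box was present in 41.1%, against 37.4% of all promoters, and the Mrps12 and Sars2 stretch holds it 3 times. These are matches of letters and not measured binding. In the GENCODE annotation of the same build, 17 members had the start of a gene on the opposite strand within 1000 bases upstream, among them Mrpl51 with Ncapd2 at 100 bases, Mrpl49 with Fau at 59 and Mrps18c with Helq at 29. These distances start from GENCODE start sites. The RefSeq start lies 399 bases downstream of the GENCODE start for Mrpl51, 132 downstream for Mrps18c, 18 for Mrps18a and 3 for Mrpl22, and 51 bases upstream of it for Mrps18b. By GENCODE the printed Mrpl51 stretch is thus inside the gene, and the Mrps18c stretch spans the start.

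Values are given as deposited, as reads of a gene divided by a size of the library and brought to a common scale, here called scaled reads. Libraries held 5133114 to 19501444 reads with a median of 9730486. Members took 0.0401% to 0.108% of the reads of a library, and all 76 had a read in each of the 61 libraries. Ribosomal RNA (mt-Rnr1, mt-Rnr2 and Rn45s) took 11.2% to 48.2% of the reads. Its group medians were 34.3% in 4-month and 21.8% in 9-month D2-Gpnmb+, 25.4% in 4-month and 29.6% in 9-month DBA/2J, and 26.4% with nicotinamide. Counts of single members were low. Mrps14 had the highest median count, 361 reads in a range of 154 to 726 per library, and Mrps34 the lowest, 11 in a range of 1 to 52. The table's columns also fall into 3 blocks by their order. Of the 9-month water libraries, block 1 has 6 of DBA/2J and 4 of D2-Gpnmb+, block 2 has 16 of DBA/2J and 2 of D2-Gpnmb+, and block 3 has 3 of each strain. The 4-month and nicotinamide libraries are all in block 3. The labels do not explain the blocks, so the main results are also given inside block 3, where all groups are present.

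The sort gate was checked against defining markers in the 9-month DBA/2J libraries. The ganglion cell genes Thy1 and Rbpms averaged 25.2 and 10.2 scaled reads, but Pou4f1 was at 0 in 11 and Slc17a6 at 0 in 9 of the 25 libraries. Over all libraries the median summed value of 10 rod markers was 6942 scaled reads, above that of 10 ganglion cell markers at 259. Isl1, which is also on the bipolar cell list, averaged 164 of the mean ganglion cell sum of 218 in 9-month DBA/2J. In the 9-month DBA/2J libraries the rod sum had medians of 7596, 21492 and 6032 in blocks 1, 2 and 3, and the summed microglial and macrophage markers had medians of 0.41, 47.8 and 1.11. Libraries are therefore described as sorted Thy1.2+ cells. In such libraries fewer cells of a type and less RNA per cell cannot be told apart.

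Per kilobase of transcript, mean values over the 61 libraries spread 29.1-fold, with a median of 5.19 scaled reads per kb and a middle range of 3.37 to 8.73. Mrps33, a mitochondria-specific protein of the small subunit, was highest at 27.3 scaled reads per kb. Mrps21 followed at 23.4, Mrpl42 at 23.2 and Mrpl27 at 20.9. The lowest were Mrps35 at 0.939, Mrpl47 at 1.15, Mrps34 at 1.42 and Mrps26 at 1.44. Values per kilobase thus differed widely between members, with genes of both subunits at both ends. They depend on the transcript length used, which was 4162 bases for Mrps35, 4278 for Mrps26 and 488 for Mrps21. Mrps34 and Mrpl47 also share exon bases with other genes. Mrps33, Mrps21, Mrpl27, Mrps35, Mrpl47, Mrps14 and Mrps34 are named for their place in this order, which was seen first.

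**Figure D1:**
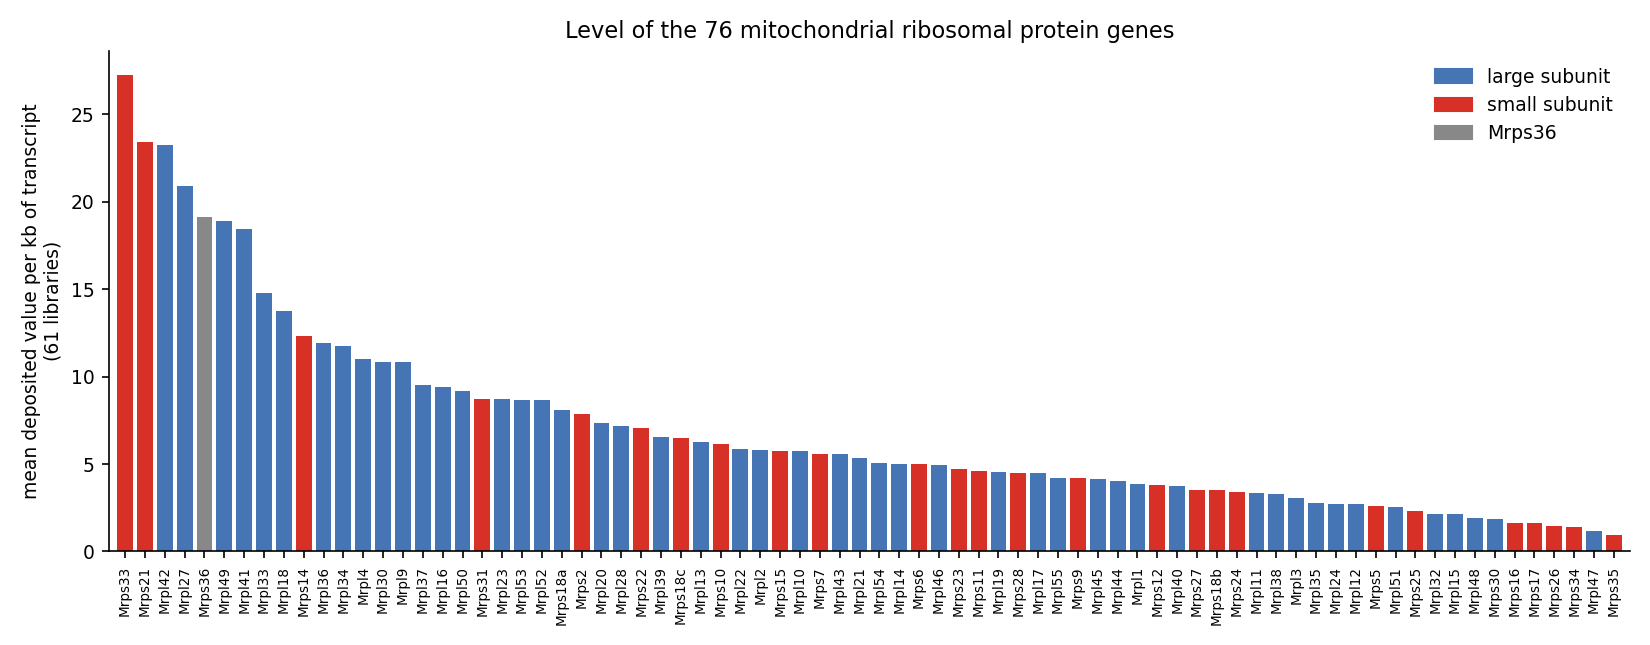
Mean value of each of the 76 genes over the 61 libraries, in scaled reads per kilobase of the principal transcript, coloured by subunit. The bars run from 27.3 for Mrps33 to 0.939 for Mrps35.

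Across libraries, the median log2(value + 1) of the members was 2.89 at the lowest, 2.93 at the median and 3.08 at the highest in the nicotinamide group. It was 2.83, 3.25 and 3.68 in 9-month DBA/2J, and 2.86, 2.95 and 3.01 in 4-month DBA/2J. In D2-Gpnmb+ it was 2.68, 3.0 and 3.07 at 9 months, and 2.75, 2.997 and 3.19 at 4 months. The 9-month DBA/2J group was the widest, and the high values lay in block 2. Its median was 2.87 in block 1, 3.33 in block 2 and 2.98 in block 3. In block 2 all 16 DBA/2J libraries, from 3.01 upwards, lay above both D2-Gpnmb+ libraries, at 2.91 and 3.0. The same held there for cytosolic ribosomal proteins, from 5.61 against at most 5.53. It held too for respiratory chain subunits, from 4.66 against at most 4.56. The strain fit within block 2 called 0 of 14549 genes, with 788 at an unadjusted p under 0.05. The rod and microglial marker sums of the block 2 DBA/2J libraries ran from 2824 to 66745 and from 4.76 to 144 scaled reads, and their part in the member values was not tested.

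**Figure D2:**
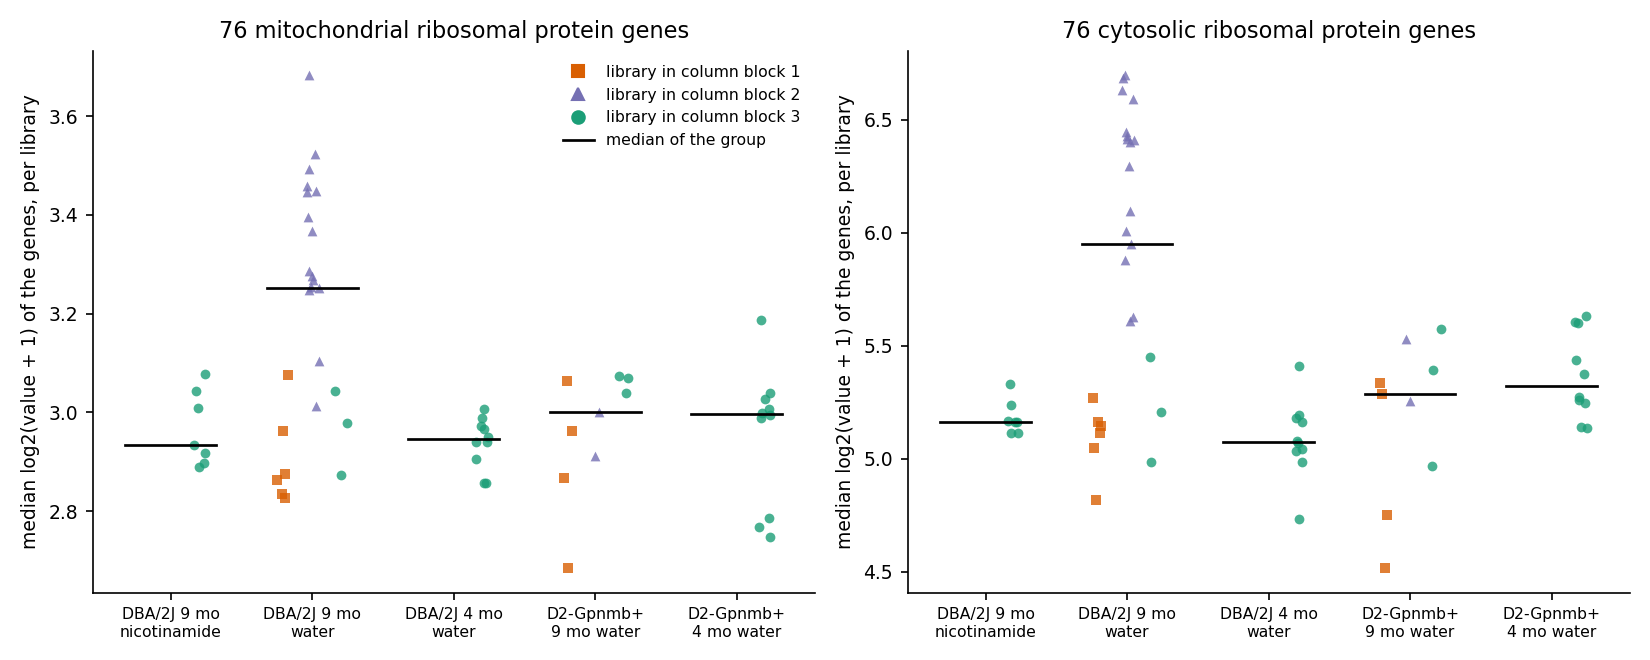
Median log2(value + 1) per library of the mitochondrial ribosomal protein genes and of the cytosolic ribosomal protein genes, by group, with the column block as colour and symbol and a line at each group's median. The member medians of 9-month DBA/2J libraries in block 2 reach 3.68, above the 3.01 of the highest 4-month DBA/2J library.

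Single members varied between libraries as well. The median coefficient of variation of the members was 20.1% in the nicotinamide group, 42.4% in 9-month and 23.2% in 4-month DBA/2J, and 32.1% and 28.01% in 9- and 4-month D2-Gpnmb+. Genes of the same range of mean values had 21.3%, 46.7%, 26.6%, 42.6% and 30.3% in these groups.

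The first comparison set 9-month against 4-month DBA/2J, to ask what changed in the cells before axons were lost. By limma on log2(value + 1), 16 of the 76 members, or 21.1%, were past an adjusted p of 0.05, against 22.4% of all 13587 genes tested. Of these members 15 rose and 1 fell. The share of members called was thus near that of all genes. Over all genes 9.25% were higher and 13.2% lower, and the members' median log2 fold change was 0.23, against 0.02 for all genes. The called members were 11 of 49 large-subunit and 5 of 26 small-subunit genes, or 11 of 45 bacterial-type and 4 of 29 mitochondria-specific genes beside Mrps18a.

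The member with the largest change was Mrps28, a small-subunit protein. It read 1.48, 4.65 and 8.65 scaled reads (lowest, median, highest) in 9-month DBA/2J, against 0.921, 2.18 and 3.03 in 4-month DBA/2J. The groups overlapped, as they did for all 16 members, though the 9-month median lay above the highest 4-month library. The log2 fold change was 0.81 (SE 0.20, adjusted p = 0.0042).

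Several large-subunit genes of bacterial type rose. Mrpl33 read 3.24, 7.39 and 22.4 scaled reads in 9-month DBA/2J, against 3.71, 4.70 and 6.55 in 4-month DBA/2J, a log2 fold change of 0.74 (SE 0.22, adjusted p = 0.0138). Mrpl20 read 1.57, 6.80 and 14.6, against 2.19, 4.05 and 5.16, and rose by 0.67 on the log2 scale (SE 0.22, adjusted p = 0.0229). Both genes were high in block 2, where Mrpl33 had a median of 10.99 and Mrpl20 one of 8.48. Mrpl14 rose by 0.66 (SE 0.23, adjusted p = 0.0314) and Mrpl28 by 0.48 (SE 0.18, adjusted p = 0.0465).

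Mrpl22, a large-subunit protein that lines the tunnel through which the new protein leaves, read 2.42, 4.89 and 13.2 scaled reads in 9-month DBA/2J, against 1.98, 2.92 and 4.60 in 4-month DBA/2J. Its log2 fold change was 0.60 (SE 0.17, adjusted p = 0.0089). Mrpl23, from near the tunnel's opening, rose by 0.61 (SE 0.23, adjusted p = 0.0492), but was called in 1 of the 10 fits that left out a 4-month library and had -0.07 inside block 3. Mrpl45, which lies by the opening and attaches the ribosome to the inner membrane, had a log2 fold change of 0.17 (adjusted p = 0.528) and did not pass.

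Among mitochondria-specific genes of the large subunit, Mrpl51 read 5.33, 10.2 and 21.3 scaled reads in 9-month DBA/2J, against 5.65, 6.79 and 7.62 in 4-month DBA/2J. The 9-month median lay above all 4-month libraries, and the log2 fold change was 0.55 (SE 0.17, adjusted p = 0.0177). Mrpl42 rose by 0.57 (SE 0.20, adjusted p = 0.0361) and Mrpl49 by 0.55 (SE 0.20, adjusted p = 0.0429). In the small subunit, besides Mrps28, the bacterial-type genes Mrps11, Mrps21 and Mrps24 rose by 0.58, 0.57 and 0.53, and the mitochondria-specific Mrps26 by 0.54, with adjusted p of 0.0328, 0.0296, 0.0181 and 0.0399.

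Mrpl19, a large-subunit protein of bacterial type at the border between the subunits, was the 1 member that fell. It read 12.01, 19.6 and 31.5 scaled reads in 9-month DBA/2J, against 21.9, 25.7 and 29.6 in 4-month DBA/2J. The 9-month median lay below the lowest 4-month library, and the log2 fold change was -0.35 (SE 0.11, adjusted p = 0.0224). This gene shares exon bases with Gcfc2, so its reads are uncertain.

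Inside block 3, with 3 libraries of 9 months and 10 of 4 months, none of the 76 members passed by limma or edgeR, against 0.263% of all genes by limma. At an unadjusted p under 0.05 there were also 0 members, against 10.7% of all genes. The members' median log2 fold change there was 0.02. Of the 16 members, 12 kept the sign of the pooled value and 4 turned, with adjusted p from 0.523 to 0.973. Mrps28 had 0.37, Mrpl22 0.45, Mrpl14 0.42 and Mrpl19 -0.16, while Mrpl28 had -0.37, Mrps21 -0.07 and Mrps26 -0.06, and Mrpl23 turned as given above. The median over the 16, taken in the direction of the pooled call, was 0.14 in block 3 and 0.57 in all libraries. The 16 were picked by the pooled fit, which holds the block 3 libraries too, so these signs and medians are no independent check. All 4-month libraries are in block 3, so age and block cannot be told apart for the other 22 libraries of 9 months. Leaving out single 4-month libraries gave 8 to 13 calls, 8 without library 8, 9 without library 1 and 10 without library 2 or library 3. Over all genes these fits called 2337 to 2906. Mrpl19, Mrpl22, Mrpl33, Mrpl51, Mrps24 and Mrps28 were called in all 10 of these fits.

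**Figure D3:**
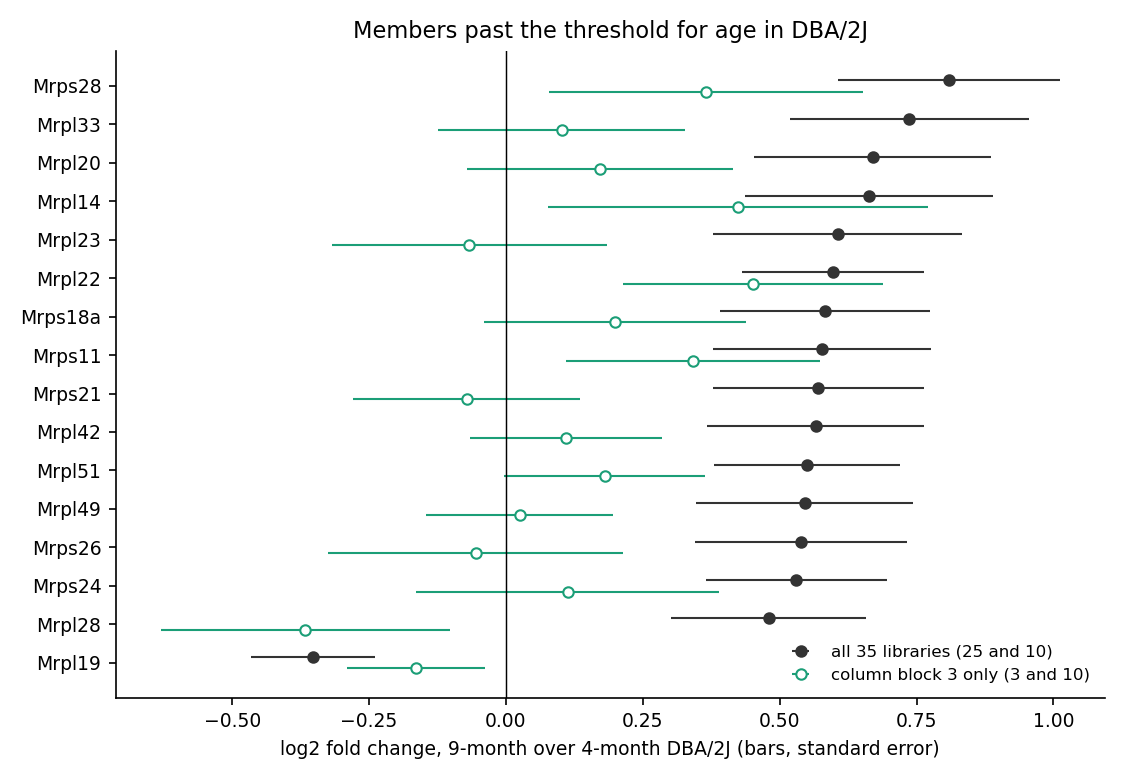
Log2 fold change of 9-month over 4-month DBA/2J for the 16 members that passed, in all 35 libraries and in column block 3, with standard errors as bars. Mrps28 stands highest at 0.81, and all 16 block 3 values are smaller in size than those of all libraries, with Mrpl28 at -0.37.

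Other cell markers moved in this comparison. All 6 of the microglial and macrophage markers tested and 4 of 10 rod markers rose, 3 of 7 Müller glia markers rose, and 7 of 8 amacrine and horizontal cell markers and 2 of 8 ganglion cell, 2 of 7 cone and 2 of 7 bipolar cell markers fell. Their part in the member changes was not tested.

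In D2-Gpnmb+ mice, 9 months against 4 months, 0 of 76 members passed by limma, where 0.0232% of all genes passed. At an unadjusted p under 0.05 there were 6, against 30.3% of all genes, and the median log2 fold change was -0.01, and 0.07 inside block 3. With libraries scaled to the same total it was 0.28, where all genes stood at 0.31. Mrps23, a mitochondria-specific small-subunit protein, came nearest. It read 2.91, 4.63 and 6.38 scaled reads at 9 months, against 4.92, 7.07 and 11.5 at 4 months, a log2 fold change of -0.65 (SE 0.18, adjusted p = 0.0750). In block 3 the 3 libraries of 9 months, at 3.62, 4.88 and 3.07, lay below all 10 of 4 months, with a log2 fold change of -0.74 (adjusted p = 0.948). By edgeR on the recovered reads, which called 11.6% of all genes, Mrps23 was the 1 member called, at -0.77 (adjusted p = 0.0267), and DESeq2, which called 16.4% of all genes, called it too. Mrps11 had 0.42 (adjusted p = 0.106) and Mrps36 -0.46 (adjusted p = 0.125).

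The test of the difference between strains in the age effect called 0 of 76 members by limma, where 0.375% of all genes were called. There were 7 at an unadjusted p under 0.05, against 12.9% of all genes. By edgeR, which called 0.297% of all genes, there were 0, and by DESeq2, which called 2.01%, there was 1, Mrps23. The largest candidates were Mrps23 with 0.86 (SE 0.27, adjusted p = 0.119), Mrpl20 with 0.86 (adjusted p = 0.212) and Mrpl52 with 0.79 (adjusted p = 0.198). A difference in the age response of these genes between DBA/2J and D2-Gpnmb+ was thus not called, although 16 members passed in 1 strain and none in the other. The members' median was 0.24 in all libraries, against -0.04 for all genes, and -0.05 in block 3. With libraries scaled to the same total it was -0.07, where all genes stood at -0.36.

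Between the strains at 9 months, DBA/2J against D2-Gpnmb+, 0 of 76 members passed by limma, where 0.0218% of all genes passed. The direction was mostly towards DBA/2J: 63 of 76 log2 fold changes were positive, with a median of 0.22, against -0.03 for all genes. At an unadjusted p under 0.05 there were 16 members, or 21.1%, against 13.2% of all genes. Of these 16, 15 were large-subunit genes, as are 49 of the 76 members, and a difference between the subunits was not tested. Mrpl20 had the smallest p. It read 1.57, 6.80 and 14.6 scaled reads in 9-month DBA/2J, against 1.18, 3.80 and 6.56 in 9-month D2-Gpnmb+, with a log2 fold change of 0.74 (SE 0.24, adjusted p = 0.169). DESeq2 called this member alone, with 1.85% of all genes, and edgeR called 0, with 0.08% of all genes.

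Mrpl10, the base of the stalk that brings translation factors to the ribosome, read 4.96, 10.3 and 27.96 scaled reads in 9-month DBA/2J, against 4.04, 7.59 and 9.82 in 9-month D2-Gpnmb+. The log2 fold change was 0.53 (SE 0.19, adjusted p = 0.197), and the groups overlapped. Mrpl14 had 0.65 (adjusted p = 0.210). The members' median was 0.09 in block 1, 0.24 in block 2 and -0.09 in block 3, where 30 of 76 values were positive. Mrpl20 had -0.13 and Mrpl10 0.32 in block 3, so the direction of Mrpl20 turned there. No marker of another cell type was called in this comparison, though the median log2 fold change was 1.24 over 10 rod, 1.44 over 6 microglial and -0.66 over 7 Müller glia markers. The summed Müller glia markers had medians in block 1 of 6138 for DBA/2J against 14374 for D2-Gpnmb+, and in block 3 of 1381 against 2256 (scaled reads). Their part in the member values was not tested.

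Between the strains at 4 months, DBA/2J against D2-Gpnmb+, by limma 0 of the 75 members tested passed, where 0.25% of all genes passed, and 1 had an unadjusted p under 0.05, against 13.5% of all genes. By edgeR and DESeq2, which called 0.281% and 1.59% of all genes, 0 members passed. The members' median log2 fold change was -0.02, against 0.01 for all genes, and single values lay between -0.34 and 0.35. With libraries scaled to the same total the medians were 0.20 and 0.24. The ends were Mrps23 at -0.34 (SE 0.16, adjusted p = 0.350) and Mrps12 at 0.35 (adjusted p = 0.399). Mrps23 read 4.20, 5.06 and 8.56 scaled reads in DBA/2J, against 4.92, 7.07 and 11.5 in D2-Gpnmb+. Mrps31 had -0.27 (adjusted p = 0.413).

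**Figure D4:**
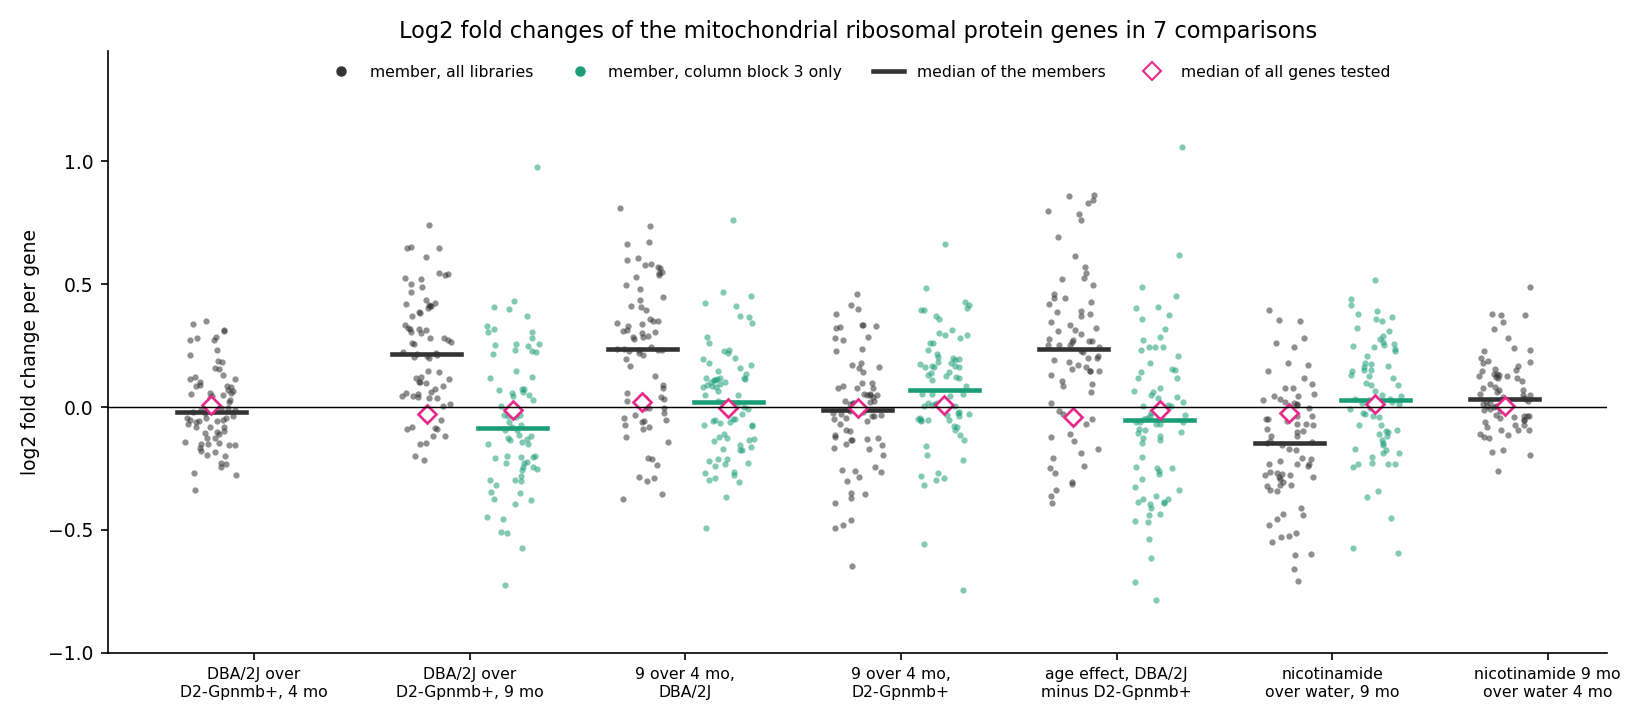
Log2 fold change of each member in 7 comparisons, in all libraries and, where 9-month water libraries enter, in column block 3, with a bar at the members' median and a diamond at the median of all genes tested. The members' median is 0.22 and 0.23 for strain at 9 months and age in DBA/2J in all libraries, and -0.09 and 0.02 in block 3.

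Nicotinamide was set against water in 9-month DBA/2J, to ask what the NAD+ precursor changed at the later age. Of 76 members 2 were lower and none higher by limma, or 2.63%, against 15.1% of all genes, of which 5.34% were lower. The members' median log2 fold change was -0.14, against -0.03 for all genes. Both called genes were also called for age in DBA/2J, and the comparisons share the 25 water libraries of 9 months, which stand on opposite sides of them.

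Mrpl22 of the exit tunnel read 2.12, 3.14 and 3.68 scaled reads with nicotinamide, against 2.42, 4.89 and 13.2 with water. All nicotinamide libraries lay below the water median, the lowest of them below all water libraries, and the log2 fold change was -0.60 (SE 0.19, adjusted p = 0.0268). In block 3 the 3 water libraries, at 4.85, 3.90 and 4.66, all lay above the 7 nicotinamide libraries, with -0.45 (adjusted p = 0.263). Mrpl51 read 5.30, 6.04 and 8.67 with nicotinamide, against 5.33, 10.2 and 21.3 with water, with -0.60 (SE 0.20, adjusted p = 0.0397). In block 3 it overlapped, with -0.23 (adjusted p = 0.596).

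Mrpl42 came next and did not pass. It read 9.03, 10.5 and 13.9 scaled reads with nicotinamide, against 9.14, 18.4 and 52.7 with water, with -0.66 (adjusted p = 0.0510), and -0.20 inside block 3. By edgeR 5 members were called, with Mrpl28, Mrpl33 and Mrpl42 beside both, where 16.3% of all genes were called, and DESeq2 added Mrps9 for 6, where 21.1% of all genes were called. Mrps9 is named because it completes this count. Inside block 3 none was called by limma or edgeR, against 0.00749% of all genes by limma, 4 had an unadjusted p under 0.05, against 16.8% of all genes, and the members' median was 0.03. Of the 7 fits that left out 1 nicotinamide library, Mrpl22 was called in 4 and Mrpl51 in 1. The count was 0 without library 1, 4 or 7, 1 without library 2, 3 or 5, and 4 without the water library 26, the shallowest of all. Over all genes the fits without a nicotinamide library called 1294 to 1861, and the fit without water library 26 called 2540. Among the markers, all 8 of amacrine and horizontal cells and 6 of 7 of cones and 2 of 9 of ganglion cells rose, and 3 of 7 of Müller glia and 3 of 6 of microglia fell, and their part was not tested.

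**Figure D5:**
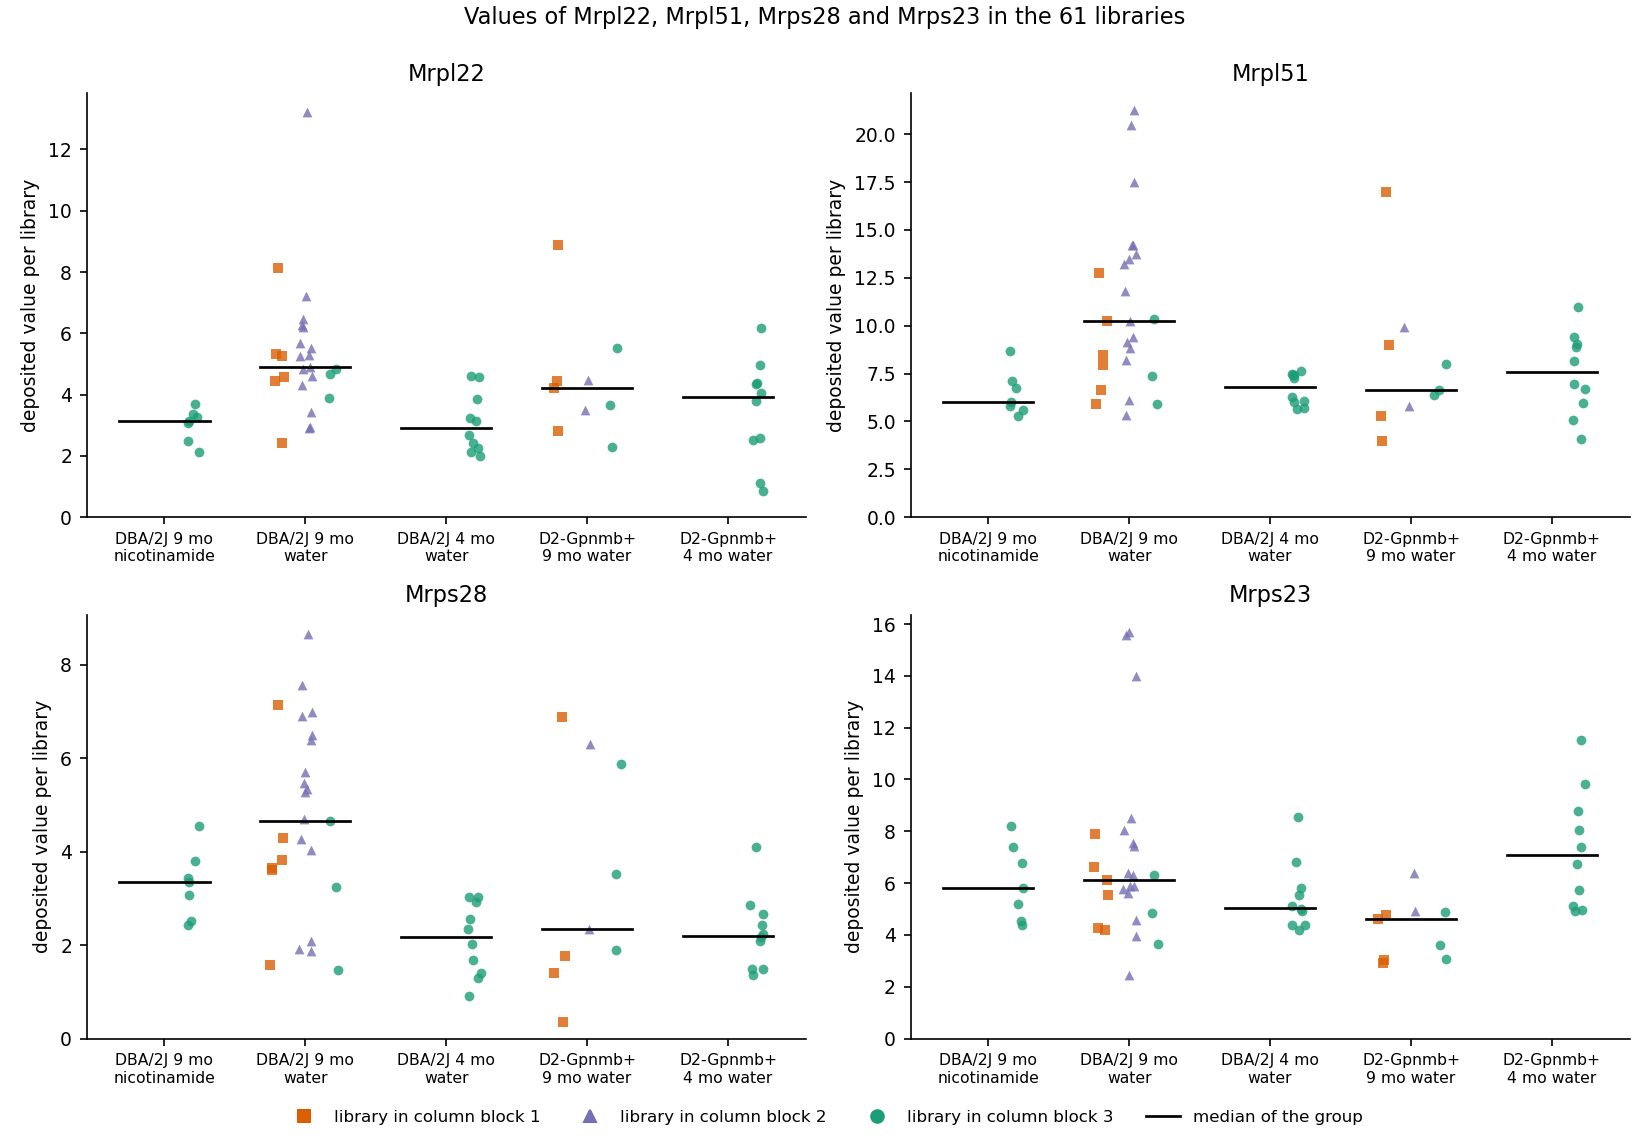
Values of Mrpl22, Mrpl51, Mrps28 and Mrps23 in scaled reads in each of the 61 libraries, by group, with the column block as colour and symbol and a line at the group's median. Mrpl22 with nicotinamide lies between 2.12 and 3.68, below all 3 water libraries of block 3.

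The nicotinamide group was also set against 4-month DBA/2J, all in block 3. By limma 0 of the 76 members passed, where 1.54% of all genes passed, and 8 had an unadjusted p under 0.05, against 14.9% of all genes. By edgeR and DESeq2, which called 1.59% and 3.83% of all genes, 0 members passed. The median log2 fold change was 0.03. Mrps28 read 2.44, 3.35 and 4.56 scaled reads with nicotinamide, against 0.921, 2.18 and 3.03 at 4 months, with 0.49 (adjusted p = 0.174). Mrpl23 had 0.37 (adjusted p = 0.214) and Mrpl36 -0.26 (adjusted p = 0.238).

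The stalk genes and the relatives of S18 are named for their place in the ribosome. Mrpl12, the factor-binding protein of the stalk, read 0.937, 4.68 and 8.09 scaled reads in 9-month DBA/2J, against 1.26, 3.15 and 3.75 in 4-month DBA/2J, with a log2 fold change of 0.41 (adjusted p = 0.149). Mrpl10 had 0.22 (adjusted p = 0.352) and Mrpl11, the partner of the stalk base, -0.0042 (adjusted p = 0.990). None of the 3 passed for age, and none passed for nicotinamide, where Mrpl10 had 0.02, Mrpl11 0.05 and Mrpl12 -0.28.

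Bacterial ribosomes carry S18 in the small subunit. In mitochondria Mrps18a sits in the large subunit, and Mrps18b and Mrps18c in the small subunit. Mrps18a read 3.58, 8.32 and 16.2 scaled reads in 9-month DBA/2J, against 3.77, 4.78 and 8.81 in 4-month DBA/2J, and rose by 0.58 (SE 0.19, adjusted p = 0.0256). Mrps18c read 0.618, 3.53 and 9.30, against 3.14, 4.75 and 8.59, with -0.37 (adjusted p = 0.206). Mrps18b read 1.92, 3.61 and 10.1, against 1.71, 3.05 and 4.75, with 0.29 (adjusted p = 0.285). In block 3 the values were 0.20 for Mrps18a, -0.17 for Mrps18b and -0.49 for Mrps18c, none of them called. With nicotinamide Mrps18a had -0.53 (adjusted p = 0.107) and Mrps18c 0.40 (adjusted p = 0.279), and inside block 3 they had -0.14 and 0.52.

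Other genes of mitochondrial translation were set beside the members for age in DBA/2J. Of 7 subunits with other names, Ict1, a peptidyl-tRNA hydrolase built into the large subunit, rose to 8.98 ± 3.52 scaled reads (SD, n = 25) in 9-month DBA/2J, against 5.64 ± 1.95 (SD, n = 10) in 4-month DBA/2J, by 0.57 (SE 0.18, adjusted p = 0.0208), with 0.52 inside block 3. Dap3 of the small subunit had -0.20 (adjusted p = 0.134). Of 23 genes for ribosome assembly and rRNA modification 3 rose, where 9.25% of all genes were higher, the helicase Dhx30 by 0.42 (adjusted p = 0.0052), Mpv17l2 by 0.73 (adjusted p = 0.0101) and the rRNA methyltransferase Nsun4 by 0.65 (adjusted p = 0.0166). Inside block 3 Dhx30 turned to -0.13, Mpv17l2 had 0.34 and Nsun4 0.70. None of 12 translation factors, of 11 genes for transcription and mRNA stability and of 5 genes for membrane insertion passed. The mitochondrial rRNAs mt-Rnr1 and mt-Rnr2 had log2 fold changes of -0.09 and 0.10.

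Of 20 genes for mitochondrial aminoacyl-tRNA synthetases and related enzymes, Cars2, Fars2 and Lars2 rose by 0.65, 0.70 and 0.50, with adjusted p of 0.0044, 0.0266 and 0.0089. Gatc, a subunit of the enzyme that makes glutaminyl-tRNA, fell, with -0.42 (adjusted p = 0.0319). Over all genes 9.25% were higher and 13.2% lower in this comparison. With nicotinamide Cars2 fell, with -0.79 (adjusted p = 0.0047), and so did Lars2, with -0.74 (adjusted p = 0.0028), where 5.34% of all genes were lower. Lars2 averaged 6341 scaled reads in 9-month DBA/2J, far above Cars2 at 6.94. Its reads are therefore taken as uncertain, and the cause of this level was not tested. Inside block 3 Cars2 had 0.24, Fars2 0.37, Lars2 -0.04 and Gatc -0.01 for age, and Cars2 -0.38 and Lars2 -0.19 with nicotinamide. None of these genes, nor Ict1, Dhx30, Mpv17l2 and Nsun4, was called there.

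Cytosolic ribosomal proteins and the nuclear-encoded subunits of the respiratory chain were set beside the members as the proteins of the other ribosome and the partners of the mitochondrial ribosome's products. For age in DBA/2J 15 of 76 members rose, with a median log2 fold change of 0.23. Of cytosolic ribosomal protein genes 53 of 75 rose, with a median of 0.70, and of respiratory chain genes 30 of 76, with a median of 0.38. The difference between the lists was not tested. In block 3 the medians were 0.02, 0.14 and 0.13, and none of these genes was called. With nicotinamide 2 of 76 members fell, against 28 of 75 cytosolic ribosomal protein genes and 14 of 76 respiratory chain genes. Inside block 3 none of these was called, and the medians were 0.03, -0.03 and -0.07. For strain at 9 months the medians were 0.22, 0.66 and 0.50 in all libraries and -0.09, -0.06 and 0.04 inside block 3, with none called by limma. The 13 subunits encoded by mitochondrial DNA had a median of -0.52 for age in DBA/2J, with none called. Per library, their median log2(value + 1) had medians at 9 months of 9.50, 11.36 and 11.27 in blocks 1, 2 and 3. The 4-month median was 11.11, so only block 1 lay below it.

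Members also varied little together from library to library. Over the 33 libraries of block 3, in which all genes share the same libraries and depths, the median Spearman rho between pairs of members was 0.02, and 54.4% of pairs were positive. It was 0.41 for cytosolic ribosomal proteins and 0.23 for respiratory chain genes. Members had a median value of 6.37 scaled reads there, against 35.9 and 23.1 for the other lists, and low counts weaken such correlations. In the 16 DBA/2J libraries of block 2 the medians were 0.10, 0.61 and 0.39. The members most like the mean of the others in block 3 were Mrpl11 with a rho of 0.54, Mrpl23 with 0.47, Mrpl40 with 0.42 and Mrps16 and Mrps14 with 0.40 each. Those least like it were Mrpl19 with -0.50, Mrps27 with -0.39, Mrpl55 with -0.27, Mrps23 with -0.16 and Mrpl1 with -0.15.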

How the data were processed

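RNA-seq of sorted retinal cells gave 1 table of 61 libraries. Per the submitters' processing notes, reads were handled with TopHat2 2.0.7, Bowtie2 2.0.6 and HTSeq on build mm10. The deposited values are a signal: the authors divided gene read counts by a size per library and brought them to a common scale, without a logarithm; how that size was made is not given in the sources used here. In every library 100% of values above 0 divided by the library's smallest step to a whole number (tolerance 0.05), which gave the reads back. Of 15171 rows, 22 with date-like names were left out.

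Columns give the group but not the sample. Library numbers are those of the column names. Whether libraries came from separate animals is not stated, so p-values measure the spread between libraries. Column blocks were defined by hand in earlier work after the values had been seen.

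In each comparison limma 3.58.1 (R 4.3.3; trended, robust empirical Bayes) was fitted on log2(value + 1), a scale that understates changes of low genes, to the groups compared. A gene was tested if its value reached 1 in a number of libraries equal to the size of the smaller group, and p-values were Benjamini-Hochberg adjusted over all genes tested, at 0.05. edgeR 4.0.16 (quasi-likelihood) and DESeq2 1.42.0 on the recovered reads, other scalings, a pseudocount of 0.5, no filter, block as a covariate, block 3 only and left-out libraries were alternatives, and the fits were tested on simulated data. The within-block 3 fits with a library left out or with edgeR, and fits of block 1 or 2 alone, were chosen after seeing the data. The members, the gene lists and the rule for named genes were chosen with earlier results of these data known. Named were the 5 highest and 5 lowest log2 fold changes among called members, or the 3 smallest p where fewer than 3 were called. The rule also held Mrpl10, Mrpl11, Mrpl12, Mrpl45, Mrps18a, Mrps18b and Mrps18c, and up to 4 genes with the smallest p of each other translation list. Not all of these are given for each comparison. The 5 members most and least like the others were named as well. The remaining called members and those named for their level were added after their values were seen. Positions and transcript lengths came from GENCODE and promoters from RefSeq, both on GRCm38; motifs were searched on both strands.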

Additional observations from a re-analysis of the deposited data

Results flagged for a closer look

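Of 72 groups of values checked for 1 library far from the others, 5 were marked, and chance marks about 1 in 20. The 9-month DBA/2J water group, with 25 libraries, was too large for this check and was left out of it. With nicotinamide, library 7 had 13.5 scaled reads of Mrpl11, the next library having 11, and library 8 had 5.96 of Mrpl12, the next having 3.18. In 9-month D2-Gpnmb+, library 5 had 8.87 of Mrpl22, the next having 5.52, and library 6 had 17 of Mrpl51, the next having 9.96. Both of these lie in block 1. In 4-month D2-Gpnmb+, library 8 had 9.99 of Mrpl45, the next having 8.62.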

How the results depend on the processing

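For age in DBA/2J the count of called members was 0 with block as a covariate, within block 3 and within block 3 by edgeR, with medians of 0.021, 0.021 and 0.039. Over all genes these fits called 8 of 13587, 36 of 13670 and 57 of 13670. All 4-month and nicotinamide libraries are in block 3, so with block as a covariate these comparisons also rest on block 3 alone. The fold changes of the covariate fit therefore had to equal those within block 3 and are no separate check. In both block fits Mrpl23 turned to -0.067, Mrpl28 to -0.366, Mrps21 to -0.072 and Mrps26 to -0.056. The cause was not tested. For nicotinamide the count was 5 by edgeR, 6 by DESeq2, 1 when libraries were scaled to the same total (Mrpl42, with neither Mrpl22 nor Mrpl51), and 0 with block as a covariate, within block 3 and within block 3 by edgeR. Over all genes the first 3 of these fits called 2275, 2938 and 1614 of 13925. The last 3 called 0 of 13925, 1 of 13352 and 1 of 13352. DESeq2 called 1 member for strain at 9 months, for age in D2-Gpnmb+ and for the interaction, and edgeR 1 for age in D2-Gpnmb+. The median for strain at 9 months was -0.086 within block 3 and -0.065 there by edgeR, and that of the interaction -0.054 and -0.058. Scaling to the same total moved the members' median to 0.199 for strain at 4 months, 0.280 for age in D2-Gpnmb+ and -0.071 for the interaction, while the median of all genes moved to 0.24, 0.31 and -0.36.

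With single libraries left out, within block 3 included, counts ran from 0 to 16 for age in DBA/2J, 0 to 4 for nicotinamide and 0 to 2 for age in D2-Gpnmb+, and were 0 in the other comparisons. Mrps23 was called for age in D2-Gpnmb+ without library 9, 13, 14 or 15 of the 9-month group, and Mrps36 without library 13. Over all genes these 4 fits called 1010 of 13030, 2069 of 13019, 1065 of 13022 and 1208 of 13025. Within block 3 Mrpl15 was called for nicotinamide without water library 27, where 378 of 13636 genes were called. Medians ran from -0.005 to 0.254 for age in DBA/2J, -0.160 to 0.051 for nicotinamide, -0.026 to 0.133 for age in D2-Gpnmb+, -0.128 to 0.242 for strain at 9 months, -0.031 to -0.002 for strain at 4 months, 0.195 to 0.257 for the interaction and 0.028 to 0.056 for nicotinamide against 4 months. By edgeR, by DESeq2 and with TMM scaling all 16 members called for age in DBA/2J stayed called, and 11 of 16 with the same total, which lost Mrpl19, Mrpl23, Mrpl28, Mrps11 and Mrps26. Mrpl23 was also lost with a pseudocount of 0.5 and with no filter. No paired analysis was possible because no label ties a number in a column name to a pair of libraries of different groups. Mrps34 had as few as 1 read in a library, and such genes limit what these depths can show.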
